A study of Mus musculus with 12 samples.

Results

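5-Formylcytosine (5fC) is made when TET enzymes oxidise 5-methylcytosine further, and the glycosylase TDG cuts it out so that base excision repair can restore an unmodified cytosine. In embryonic stem cells 5fC is scarce and is known to gather at regulatory elements such as enhancers and promoters, where demethylation is active. Methylation and its oxidation products lie mostly in CpG dinucleotides, where a cytosine on each strand can carry the mark. The results below concern 5fC bases of TDG-proficient cells that were not listed in TDG-deficient cells at the same base or on the base beside it, but had a TDG-deficient 5fC base a short way off.

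The cells were mouse embryonic stem cells of C57BL/6-ICR background, grown without feeders in serum and LIF, either Tdg -/- (knockout) or Tdg fl/fl (control, with floxed alleles). All 5fC was read by cyclization-enabled C-to-T transition: azido-indandione reacts with 5fC, the adduct is copied as T, and a biotin handle lets the labelled strand be pulled down. The labels give 12 libraries in 6 groups of 2 replicates, namely pull-down output, labelled input and input before labelling for each genotype, and the authors deposited 1 list of single-base positions per genotype on mm9. The lists carry no level, read number, strand or replicate, so every value below is a count of positions or a distance, the depth is unknown, and differences between genotypes have no replicate check. The genotype of each list was read from its name and could not be checked against Tdg itself.

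Sites were chosen by their distance to the knockout list. A control site on chromosomes 1 to 19 was taken when its nearest knockout site lay 2 to 1000 bases away and no other control site lay exactly 1 base from it. These nearby-only sites numbered 12623 of 32614 control sites, or 38.7% (Clopper-Pearson 95% interval 38.2 to 39.2). The remaining control sites without an adjacent control site fell into 3 classes: 12857 were listed at the same base in knockout cells, for 2353 the closest knockout site was the adjacent base, and 3057 had none within 1000 bases. The other 1724 control sites lay in adjacent-base pairs, and 346 of them met the distance rule but were left out for that reason. At this limit nearby-only sites were about as many as same-base sites, but they could lie at many distances and same-base sites at only 1. With an upper limit of 100 bases there were 6054 nearby-only sites. Their distances describe the choice and are given without a test, and the intervals cover counting error only.

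A distance of 2 or more bases cannot be the opposite cytosine of the same CpG, which lies 1 base away. In that sense the sites and their knockout neighbours were different CpGs, provided that both are CpG cytosines. The sequence of mm9 was not used here, so the CpG context of the listed bases was not checked, and no gene, exon or promoter was assigned to them.

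Most nearby-only sites had a knockout site much closer than the limit. The median distance was 109 bases (95% interval 105 to 113), with quartiles at 40 and 271 bases and the 95th percentile at 694 bases. A knockout site lay within 50 bases of 30.6% of them (29.8 to 31.4), within 100 bases of 48.0% (47.1 to 48.8), within 200 bases of 66.9% (66.1 to 67.7) and within 500 bases of 88.8% (88.3 to 89.4). Distances of up to 50 bases were found for 3860 sites, the next 50 bases held 2194, and the last 50 bases of the range held 69. By chromosome the median distance ran from 91 bases on chromosome 13 to 130 bases on chromosome 7 (108.5 ± 9.87, SD over 19 autosomes).

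Very short distances were rare. Only 29 sites had their nearest knockout site at 2 bases, 35 at 3 bases and 71 at 4 bases, whereas 115 had it at 6 bases and 120 at 9 bases. If both bases were CpG cytosines of the same strand, the shortest of these spacings would need CpGs that follow each other directly. CpG context and strand were unknown here, so whether this underlies the low counts was not tested. At the lower limit of the choice the counts changed sharply, from 2353 control sites at 1 base to the 29 at 2 bases. At the upper limit they did not: the last 10 bases inside the limit held 10 sites, and the first 10 bases beyond it held 17 of the sites left out.

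**Figure D1:**
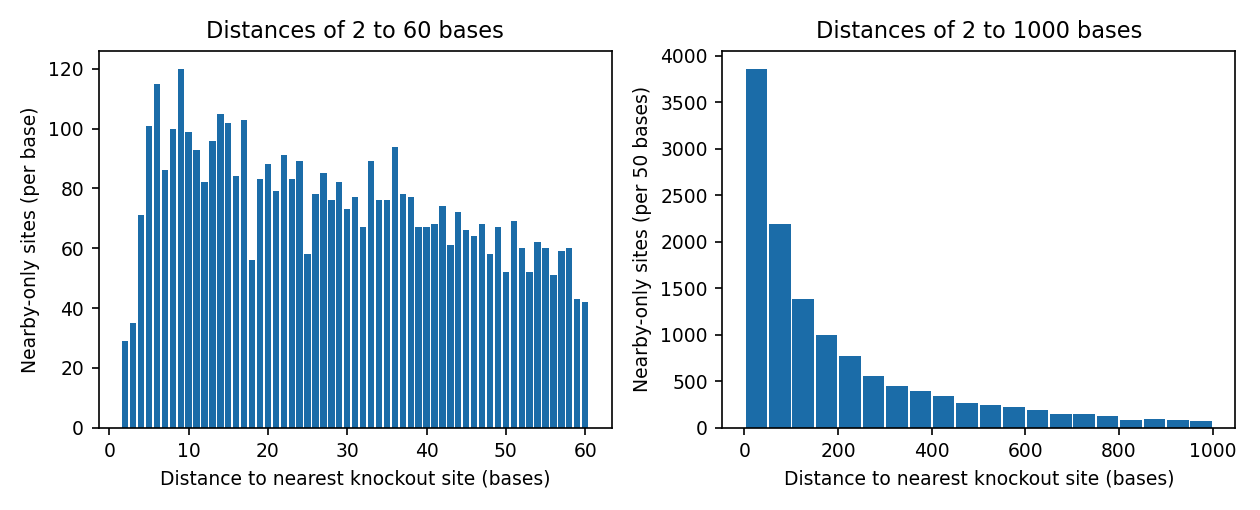
Number of nearby-only control sites (bars) by distance in bases to the nearest knockout site, per base from 2 to 60 bases (left) and per 50 bases up to 1000 bases (right). Counts are lowest at 2 and 3 bases on the left (29 and 35), and on the right fall from 3860 in the first bar to 69 in the last.

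The nearest knockout site lay on either side alike. Its position was higher than that of the control site in 49.3% of cases (48.5 to 50.2), leaving out 15 sites with knockout sites equally far on both sides. Without a strand in the lists, higher and lower positions carry no meaning for a gene or a reading direction.

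Most nearby-only sites had more than 1 knockout site around them. Within 1000 bases the median number was 2 and the mean 2.50 ± 0.110 (SD over 19 autosomes). Chromosome 14 had the lowest mean, 2.32, and chromosome 17 the highest, 2.70. The mean was 0.699 within 100 bases, 1.28 within 250 bases and 1.83 within 500 bases. Exactly 1 knockout site was found around 4171 sites (33.0%), 2 around 3495 (27.7%), 3 around 2324 (18.4%) and 4 around 1250 (9.90%). From 5 to 9 were found around 1326 sites (10.5%), and 10 or more around 57 (0.452%), with 16 at most. Knockout sites lay on both sides within 1000 bases of 31.4% of sites (30.6 to 32.2), and of 46.8% (45.8 to 47.9) where there were 2 or more of them.

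With more knockout sites around, the nearest is closer by geometry alone, so sites with a lone knockout neighbour give the plainest view of spacing. Their distance had a median of 171 bases (161 to 178), and 36.4% (34.96 to 37.9) had it within 100 bases. An even spread of that neighbour over the permitted range would place 9.91% of them there, which is a reference value and not a test. The distance was used in the choice, and whether listed bases could be evenly spread was not checked. Same-base and adjacent-base sites with 1 other knockout site within 1000 bases had it within 100 bases more often, at 45.8% and 49.1%.

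Same-base control sites were the closest counterpart, since they too can have further knockout sites 2 to 1000 bases off. Of the 12857 same-base sites, 10456 (81.3%) had at least 1, and of the 2353 adjacent-base sites, 1931 (82.1%) did. Among those, the mean number of further knockout sites was 2.51 ± 0.150 and 2.59 ± 0.231 (SD over 19 autosomes), against the 2.50 of nearby-only sites. The difference between nearby-only and same-base sites averaged -0.00600 ± 0.0968 over the autosomes, within the spread between chromosomes. Given that there was any knockout neighbour, the mean numbers of nearby-only and same-base sites were close, and the difference was not tested.

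Those neighbours lay farther off from nearby-only sites. The nearest was at a median of 109 bases from nearby-only sites, 75 bases (72 to 78) from same-base sites and 70 bases (65 to 75) from adjacent-base sites. Over single autosomes the median ran from 91 to 130 bases for nearby-only sites and from 63 to 90 bases for same-base sites. This distance is the value by which nearby-only sites were chosen, so the comparison is a description. With exactly 1 such neighbour the medians were 171 bases for nearby-only sites, 118 bases (112 to 126) for same-base sites and 103 bases (90 to 120) for adjacent-base sites. Sites of 1 list are not independent replicates, so no p-value was computed for these differences, and whether read length, fragment length or depth plays a part was not tested.

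The difference was greatest between 5 and 20 bases. Per 1000 nearby-only sites there were 8.73 knockout sites per base of distance at 11 to 20 bases, against 14.0 per 1000 same-base sites that had any. At 6 to 10 bases the values were 9.57 and 14.2, and at 21 to 40 bases 8.44 and 9.74. Over 100 and up to 200 bases they were close, at 4.23 and 4.46. Over 200 and up to 300 bases the order was the opposite, at 2.95 and 2.50, and it stayed so in each further 100 bases up to 1000. Past 20 bases the value for same-base sites thus fell by far more than that for nearby-only sites. At 2 bases both were rare, with 29 and 14 pairs, and there nearby-only sites had the more. In the last 100 bases of the range the values were 1.06 and 0.962. Because the mean numbers within 1000 bases were alike, fewer knockout sites at short range entail more farther out.

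**Figure D2:**
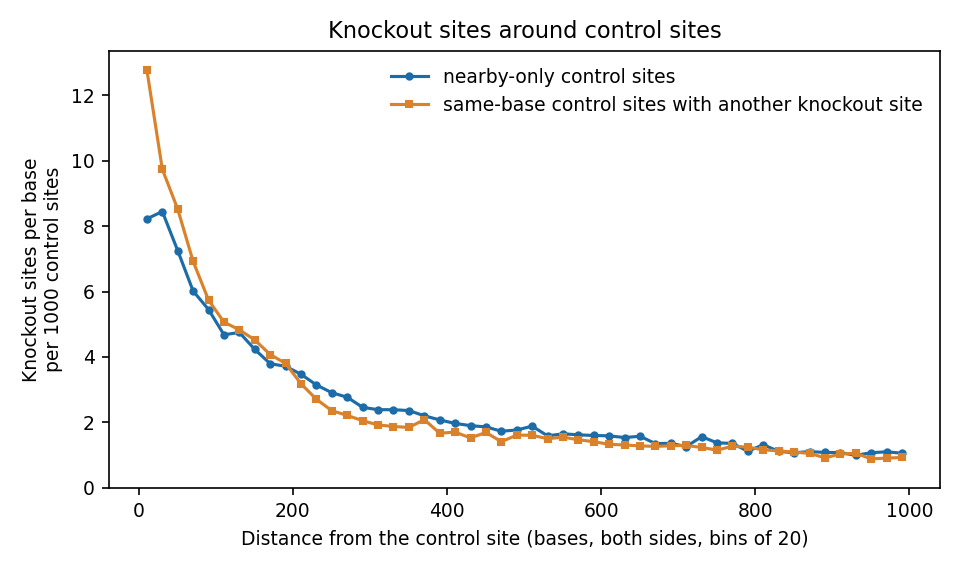
Knockout sites per base of distance per 1000 control sites (vertical axis) against distance from the control site in bases, in bins of 20 bases, for nearby-only sites (circles) and for same-base sites with at least 1 other knockout site 2 to 1000 bases away (squares). The squares lie above the circles at the shortest distances (12.8 against 8.22 in the first bin, without the base next to the site). They lie below the circles in every bin between 200 and 700 bases and in most bins beyond.

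The knockout neighbours themselves were compared with the rest of their list. Counting adjacent knockout bases as 1 location, the nearest neighbours of nearby-only sites made up 11592 locations, of which 10.9% (10.3 to 11.5) had both bases listed. The share was 11.4% (11.1 to 11.7) over the 43665 knockout locations with any control site 2 to 1000 bases away, and 10.8% over all 125131. Of nearby-only sites, 11.3% (10.8 to 11.9) had as nearest neighbour a knockout base that was listed in control cells too. The same held for 11.3% (11.1 to 11.6) of the 48651 knockout sites with a control site in that range, and for 9.95% (9.79 to 10.1) of all knockout sites. Beside knockout sites near a control site, the intervals of both shares overlapped. Beside the whole list, the second share was higher.

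Neighbours were mostly not shared among nearby-only sites. The 12623 sites had 11627 distinct nearest knockout sites: 10696 served 1 site each, 870 served 2, and 61 served 3 or more, with 5 at most. In 74.6% of cases (73.9 to 75.4) the nearby-only site was in turn the control site closest to that knockout base. Where the knockout base was itself not listed in control cells, this share was 84.2% (83.5 to 84.8). In 79.8% of cases (79.1 to 80.5) the knockout site was closer than any other control site. The choice itself favours this, since it sets a knockout site within 1000 bases, where only 43.4% had another control site. The knockout list was also 4.25 times as long, so this share is no separate measure.

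Knockout sites no more than 1 kb apart were joined into 59855 regions, and each nearby-only site was assigned to the region of its nearest knockout site. Such a site was assigned to 10944 of the regions (18.3%, 17.98 to 18.6). The share was higher in larger regions, from 15.7% (15.2 to 16.2) of the 22966 lone knockout sites to 28.0% (26.8 to 29.3) of regions of 5 to 9 sites and 50.2% (44.5 to 55.9) of the 311 regions of 10 or more. A larger region covers more bases, and its length was not adjusted for. Of the nearby-only sites, 4023 (31.9%) belonged to a lone knockout site and 224 (1.77%) to the largest regions. These classes made up 22966 and 311 of the 59855 regions. Lone knockout sites thus held less, and the largest regions more, of the nearby-only sites than their share of regions. In regions of 2 or more knockout sites, 41.3% (40.3 to 42.4) of the nearby-only sites lay between the outermost knockout sites and the rest lay beyond them.

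In 2648 of the 10944 regions (24.2%, 23.4 to 25.01) there was also a base listed in both genotypes. That share was 10.2% (9.24 to 11.2) where the region was a lone knockout site, 19.8% (18.4 to 21.4) with 2 knockout sites, 48.8% (46.1 to 51.4) with 5 to 9 and 70.5% (62.7 to 77.5) with 10 or more. Over all knockout regions, with or without a nearby-only site, the same share was 19.8% (19.5 to 20.1). By size it was 8.30% (7.95 to 8.66), 18.1% (17.6 to 18.7), 47.1% (45.7 to 48.4) and 70.4% (65.01 to 75.4) in the same 4 classes. More knockout sites in a region give more bases that can be shared, so the order by size follows from the classes. Within a class, regions with a nearby-only site were higher beyond the intervals only for lone knockout sites among these 4. More than 1 nearby-only site was found in 1483 regions, and 5 at most.

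Another control site lay 2 to 1000 bases from 43.4% (42.5 to 44.3) of nearby-only sites. Over all same-base sites the share was 39.8% (38.9 to 40.6), but these include sites without any other knockout site in that range. Among the 10456 same-base sites that had one, as every nearby-only site does, it was 44.5% (43.5 to 45.4), and among the 1931 such adjacent-base sites 45.0% (42.7 to 47.2). Nearby-only minus such same-base sites was -1.15 ± 2.49 percentage points over autosomes (mean and SD), and positive on 5 of 19. The SD is the spread between chromosomes and not the error of the mean, and the difference was not tested. The restriction to sites with another knockout site was added after seeing the data. Control sites without a knockout site within 1000 bases had 22.4% (20.97 to 23.96), and by their definition none of their control neighbours in that range can be a same-base site. A same-base site lay within 1000 bases of 23.3% (22.6 to 24.1) of nearby-only sites, and another nearby-only site within 1000 bases of 23.2% (22.4 to 23.9).

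The wider surroundings, over 1000 and up to 10000 bases away, were not used in the choice. Nearby-only sites had a mean of 4.44 knockout sites there, same-base sites 4.36, adjacent-base sites 4.03 and sites without a close knockout site 3.43. The difference from same-base sites was 0.0756 ± 0.238 (SD over autosomes), positive on 12 of 19, and was within the spread between chromosomes. From sites without a close knockout site it was 0.962 ± 0.480, positive on 18 of 19, in classes that the choice had already set apart by the close range. At least 1 knockout site lay in that range for 75.7% (74.98 to 76.5) of nearby-only sites, 74.0% (73.2 to 74.7) of same-base sites and 67.3% (65.6 to 68.9) of sites without a close one.

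Among nearby-only sites, the close and the wide surroundings ran in opposite directions. The 6054 sites at 2 to 100 bases had on average 2.80 ± 0.167 knockout sites within 1000 bases, and the 1409 sites at over 500 bases had 1.76 ± 0.124, lower on 19 of 19 autosomes. A short distance leaves more of the range for further sites, so this part is tied to the choice. Over 1000 and up to 10000 bases away the means were 4.23 ± 0.622 at the short and 5.31 ± 0.890 at the long distances (SD over autosomes), higher at the long ones on 19 of 19, by 1.07 ± 0.704. Counted only beyond 2000 bases, the difference was 0.832 ± 0.647 and positive on 18 of 19 autosomes, a count added after seeing the data. What sets this difference was not tested. Over 1000 and up to 10000 bases away no knockout site was found for 27.2% of sites at 2 to 10 bases and 17.4% of sites at over 500 bases.

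**Figure D3:**
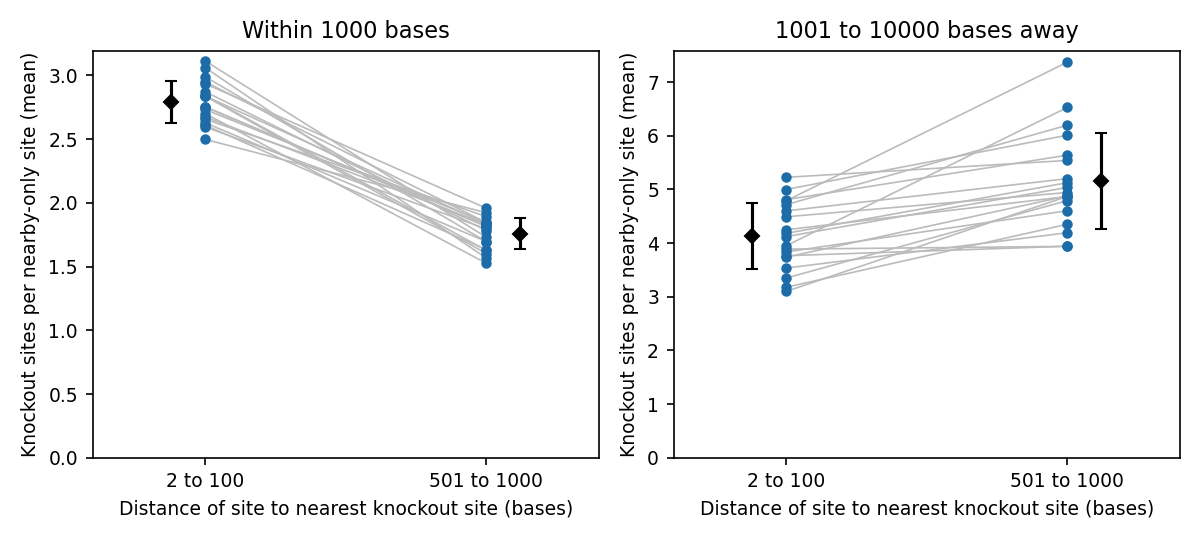
Mean number of knockout sites per nearby-only site within 1000 bases (left) and beyond that up to 10000 bases away (right), for sites whose nearest knockout site is 2 to 100 bases or over 500 bases off. Circles are the 19 autosomes, lines join the same autosome, and black diamonds with bars are the mean and SD of the autosome values. All 19 lines fall on the left and all 19 rise on the right.

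Other features were tabulated by distance. A same-base site is itself a knockout site, so a site far from any knockout site has less room for one, and the first 2 of these features are partly fixed by the choice. A same-base site lay within 1000 bases of 29.2% (26.0 to 32.6) of sites at 2 to 10 bases, 23.4% (21.9 to 24.9) of those at over 100 to 250 bases and 15.6% (13.8 to 17.6) of those at over 500 bases. A lone knockout neighbour was found for 18.7%, 33.1% and 54.4% of the same groups. The nearest knockout site had an adjacent knockout site in 13.9% (11.5 to 16.6), 10.1% (9.07 to 11.2) and 9.79% (8.29 to 11.5) of them, with overlapping intervals for the last 2 groups.

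Nearby-only sites were spread over all 19 autosomes. Their number ran from 388 on chromosome 16 to 1056 on chromosome 11, and their density from 3.53 per Mb on chromosome 14 to 8.90 per Mb on chromosome 11 (5.35 ± 1.42, SD). Because each site was chosen for a knockout site close by, its density is tied to that of the knockout list and is no separate measure. The nearby-only share of control sites had Pearson's r of 0.356 and Spearman's rho of 0.484 with knockout sites per Mb over 19 autosomes. The autosomes share libraries and differ in base composition. This share rests on the same distance rule, so it too is no separate measure. As a share of a chromosome's control sites, nearby-only sites made up 38.8% ± 1.84 (SD), from 35.7% (33.6 to 37.8) on chromosome 1 to 41.9% (38.9 to 44.9) on chromosome 19. Counting error alone would give a chromosome a standard error of 0.934 to 1.57 percentage points, somewhat under the observed SD of 1.84. What lies behind the remainder was not tested.

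**Figure D4:**
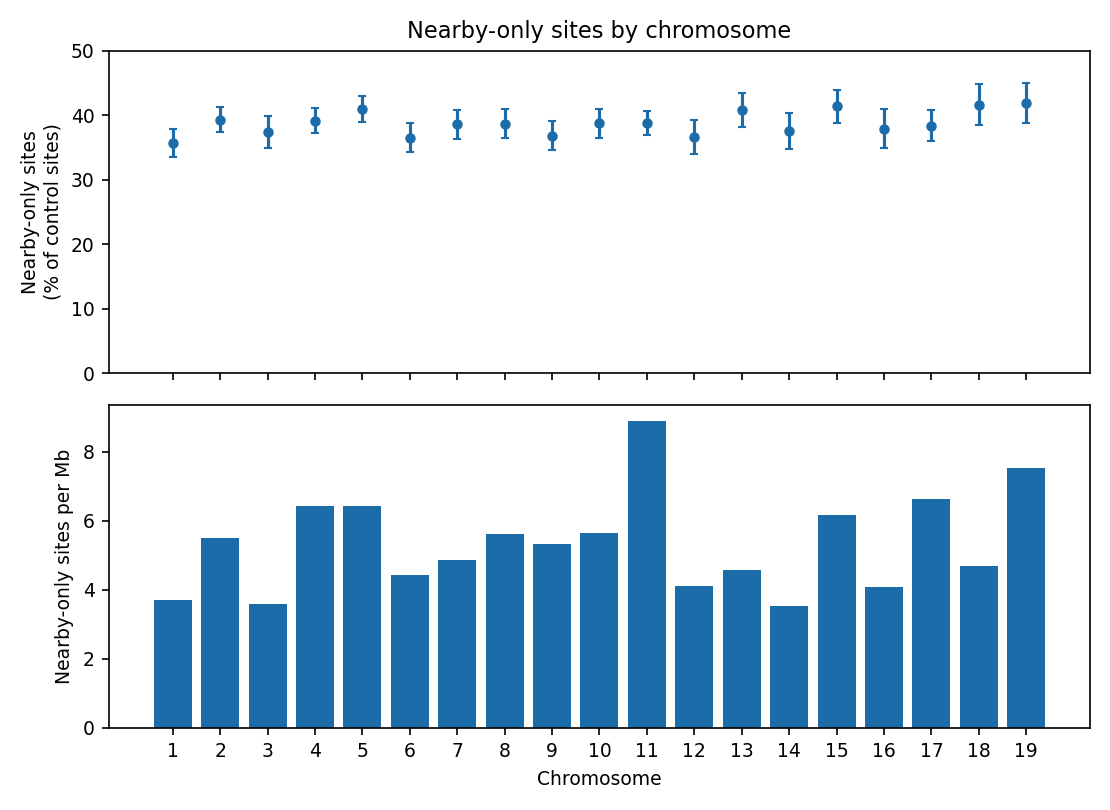
Nearby-only sites on each autosome as a percentage of its control sites with Clopper-Pearson 95% intervals (top), and per Mb between its outermost listed sites (bottom). The percentages lie between 35.7 and 41.9, while the density is highest on chromosome 11, at 8.90 per Mb, and lowest on chromosome 14, at 3.53 per Mb.

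On a finer scale, 1755 of 2423 windows of 1 Mb held a nearby-only site, with a median of 2 per window and 48 at most. Their numbers per window followed those of same-base sites, with Pearson's r of 0.875 and Spearman's rho of 0.861 over these windows. The windows are not independent and share libraries and base composition. Both classes are parts of 1 control list. Both were also defined by a knockout site at or near the base, so the choice favours a high correlation. Of 240999 windows of 10 kb, 10190 held a nearby-only site, 1948 held 2 or more and 399 held 3 or more. Thus 4381 of the 12623 sites had company of their kind in the same window. No such count is given here for the other classes of control sites, so it does not set nearby-only sites apart.

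The windows of 10 kb with the most nearby-only sites held 6 each, apart from the fifth. On chromosome 4 from 108570000 to 108579999 there were 9 control sites, 6 of them nearby-only and 3 same-base, with 16 knockout sites and distances of 47 to 881 bases. On chromosome 8 from 87260000 to 87269999 there were 8 control and 14 knockout sites, with distances of 15 to 839 bases and 1 base in common. The window of chromosome 15 that spans 88990000 to 88999999 and that of chromosome 18 spanning 69590000 to 69599999 held more control than knockout sites, 7 against 5 in each, again with 1 base in common. Their median distances were 321.5 and 132 bases. The fifth window, on chromosome 4 from 148290000 to 148299999, held 5 nearby-only sites among 7 control and 18 knockout sites. These windows were picked for many nearby-only sites, which are control sites, so the choice favours the excess of control sites on chromosomes 15 and 18. In the other windows knockout sites were the more numerous.

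Nearby-only sites no more than 1000 bases from the next formed 1377 runs of 2 or more, of which 13 had 4 or more. Runs of the other classes of control sites are not given here for comparison. The most sites in a run were 5, in a run on chromosome 10 and another on chromosome 15. The first of these lay on chromosome 10 from 20227513 to 20228155, a stretch of 643 bases. Its 5 nearby-only sites surrounded a lone knockout site at 20228027, which was listed in control cells at the same base, at distances of 514, 462, 386, 10 and 128 bases. The run on chromosome 15 from 88990661 to 88991298 had no knockout site inside it. The knockout sites nearest to it stood outside at 88990298 and 88991513, so that its sites were 215 to 410 bases from them, and the second of these bases was listed in control cells too. The third run, on chromosome 2 from 131038932 to 131039834, had 4 nearby-only sites, 1 same-base site at 131039623 and 4 knockout sites, at distances of 14 to 136 bases. These stretches show 3 arrangements: around a shared base, between knockout sites, and among them.

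**Figure D5:**
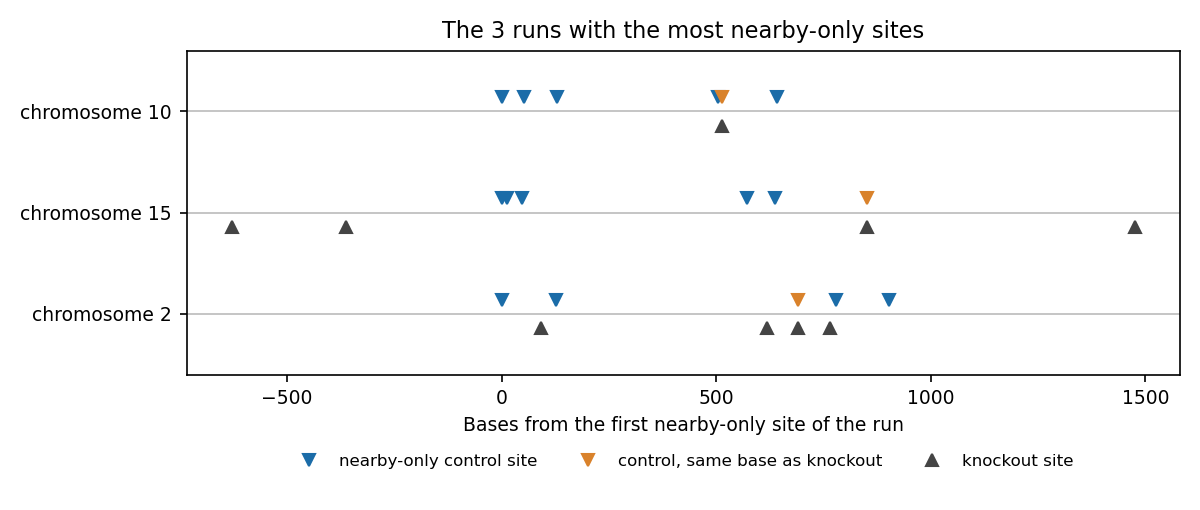
Positions of listed sites, in bases from the first nearby-only site, along the 3 runs with the most such sites. Triangles above each line are control sites (nearby-only, or at the same base as a knockout site) and triangles below it are knockout sites. On chromosome 10 a lone knockout site stands among 5 nearby-only sites, on chromosome 15 the knockout sites stand outside the run, and on chromosome 2 knockout sites stand among the nearby-only sites.

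The nearby-only site with the most knockout sites around it was at 99005995 on chromosome 11, with 16 within 1000 bases, 8 below and 8 above, the nearest at 47 bases. It had 6 other control sites within 1000 bases, 5 of them at a knockout base. The next was at 20235246 on chromosome 12, with 15 knockout sites, 12 below and 3 above, the nearest at 42 bases, and 5 other control sites that were all same-base sites. The third was at 129099404 on chromosome 5, with 14 knockout sites, 9 below and 5 above, the nearest at 93 bases. Among 4 other control sites around it, 3 were at a knockout base. These 3 sites were picked for their many knockout neighbours. At all 3, most of the other control sites around were at a base that knockout cells shared, which this choice favours. Over all nearby-only sites, a same-base site lay within 1000 bases of 23.3%, and any other control site of 43.4%.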

How the data were processed

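The authors deposited 1 list per genotype of chromosome, start and end, without a header; start equalled end in every row, and each row is thus the position of 1 base, with no score or count beside it. Bismark 0.8.3, HOMER and the build mm9 are named in the submitters' processing notes. How a site came to be listed, its depth, the pooling of replicates and the base from which positions count are not stated there, and positions are printed as listed. Distances were computed with numpy 2.4.6 and intervals with scipy 1.17.1 (Python 3.11.15), and matplotlib 3.10.9 drew the figures. Nearest distances, neighbour numbers and classes were checked on lists with planted sites and against all pairwise distances of chromosome 19. Shares have exact Clopper-Pearson and medians exact binomial order-statistic 95% intervals, for counting error only. The SD over 19 autosomes describes the spread between chromosomes and is not a replicate error. No test was run, since there is 1 list per genotype. Named regions are the 5 windows of 10 kb with the most nearby-only sites, the 3 runs with the most of them and the 3 of them with the most knockout sites within 1000 bases. Ties went to more knockout sites, then to position. The nearby-only sites and the measures were chosen with earlier results of these data known. The depth of the libraries is unknown.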

Additional observations from a re-analysis of the deposited data

Results flagged for a closer look

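Chromosome X was outside the comparisons. Of its 56 control sites, 12 met the same distance rule (21.4%, Clopper-Pearson 95% interval 11.6 to 34.4), at 5 to 953 bases from a knockout site (median 78.5). They are listed here because this chromosome enters no value above, and their presence follows from the lists and the rule. Among the alternatives below, the count of nearby-only sites with chromosome X included was 12635. The interval lies below the 38.7% of the autosomes, and this difference was not tested.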

How the results depend on the processing

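Of 23 alternatives over 9 results, 9 left the value within 1.5 times (for a count), within its interval or within 1 SD over autosomes. Most of the others redefine the range measured, so their values move by construction. With an upper limit of 100 bases there were 6054 nearby-only sites. The median distance was 88 bases with a limit of 500 bases and 122 bases with a limit of 2000 bases. Knockout sites per nearby-only site were 2.25 with adjacent ones counted as 1, 1.83 within 500 bases and 3.18 within 2000 bases. Knockout sites lay on both sides of 21.9% of these sites within 500 bases and of 39.8% within 2000 bases. The nearest knockout site had an adjacent one in 12.0% of these sites within 100 bases, against 10.9% of all. A site at or beside a knockout base lay near 26.9% of these sites, and another control site near 35.3% within 500 bases and 49.7% within 2000 bases. Knockout sites beyond 1000 bases averaged 2.19 to a limit of 5000 bases and 8.54 to a limit of 20000 bases. The alternatives that counted only beyond 2000 bases were added after seeing the data. The spread over chromosomes had no alternative. No paired analysis was possible because each genotype has a single list without replicates, and leaving out replicates was not run for the same reason. Read depth is unknown and limits every count by an amount not measured.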
